A study of Mus musculus with 48 samples.

Results

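The 10 genes described here encode the class II antigen presentation machinery: the classical chains H2-Aa, H2-Ab1 and H2-Eb1, the invariant chain Cd74, the peptide-exchange factor H2-DM (H2-DMa, H2-DMb1 and H2-DMb2), its modulator H2-O (H2-Oa and H2-Ob) and the transactivator Ciita. They were picked by gene name, for their known roles, from the 54735 genes counted in each RNA-seq library. The libraries came from 3 splenic populations sorted from male Balb/c mice aged 10 weeks, either wild type (WT) or labelled Il1rl1-/- (Il1rl1 encodes the receptor for the alarmin IL-33). Monocytes were sorted as Ly6Glo CD11bhi F4/80- cells, precursors of red pulp macrophages (pre-RPMs) as Ly6Glo CD11bhi F4/80lo cells, and red pulp macrophages (RPMs), the iron-recycling macrophages of the spleen, as Ly6Glo CD11blo/- F4/80hi cells. There were 4 mice per genotype, so 6 groups of 4 libraries and 24 libraries in all. The labels name no treatment, and the genotypes share strain background, sex and age. The comparisons ask how these genes change from monocyte to pre-RPM to RPM, and whether the genotypes differ.

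MHC class II molecules display peptides from endocytosed protein to CD4+ T cells. Their alpha and beta chains assemble in the endoplasmic reticulum with the invariant chain, which blocks the groove and guides the complex to endolysosomes. There proteases trim the invariant chain to a short remnant, H2-DM exchanges that remnant for peptide, and H2-O restrains H2-DM. CIITA does not bind DNA itself; it is recruited by RFX, CREB and NF-Y proteins that sit on a conserved arrangement of promoter boxes. Dendritic cells and B cells hold class II constitutively, whereas macrophages vary with tissue and with interferon gamma.

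The start-site regions of the members show the boxes on which that assembly rests, and are printed here because the members are compared with Ciita in what follows. RefSeq start-site windows of build GRCm38.p6, from 250 bases before to 50 bases after each start, held 7 of the 10 members. H2-Ab1, Cd74 and Ciita had no entry. Capitals mark matches on the strand of the gene to AGNAAC (X1 box), ATGATG (X2 box) and GATTGG (Y box), letters taken from the boxes as generally described, and the 3 motifs do not overlap each other in these stretches. Each stretch spans 66 bases, in the order H2-Oa chr17:34092283-34092348 (+), H2-DMb2 chr17:34145106-34145171 (+), H2-DMb1 chr17:34153077-34153142 (+), H2-Ob chr17:34238795-34238860 (+), H2-Aa chr17:34287859-34287924 (-) and H2-Eb1 chr17:34305755-34305820 (+).
H2-Oa: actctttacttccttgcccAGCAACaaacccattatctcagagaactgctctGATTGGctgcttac
H2-DMb2: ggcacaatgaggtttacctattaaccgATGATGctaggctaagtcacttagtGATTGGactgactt
H2-DMb1: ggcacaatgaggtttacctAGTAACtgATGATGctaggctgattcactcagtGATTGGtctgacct
H2-Ob: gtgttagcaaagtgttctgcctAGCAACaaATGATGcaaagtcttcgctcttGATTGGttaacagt
H2-Aa: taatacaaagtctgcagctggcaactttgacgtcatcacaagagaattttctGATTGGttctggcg
H2-Eb1: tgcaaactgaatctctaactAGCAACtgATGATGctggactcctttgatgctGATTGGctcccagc
The 6 stretches were cut with GATTGG at the same position, so that all hold it is no result. Of the 2 H2-DMa windows, which are not printed, 1 held GATTGG. H2-DMb1, H2-Ob and H2-Eb1 hold all 3 motifs in the same order. A window was counted as holding the arrangement where AGNAAC or ATGATG started between 12 and 40 bases before the GATTGG. By that count 5 of the 7 members held it, against 0.304% of all 32851 RefSeq windows. The first is a share of members, H2-DMa having 2 windows, and the second a share of windows. The boxes searched for are those described for class II promoters, so a high share among the members is no result of these data. Searched alone on both strands, AGNAAC was in 48.1% of all windows, ATGATG in 11.2% and GATTGG in 16.1%, so single matches are common. The H2-Aa stretch differs from these exact letters before its GATTGG. The 2 RefSeq windows of H2-DMa held no such arrangement and lay outside the exons on which the authors counted its reads. A match of letters is a description of sequence and does not show binding.

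Library totals ran from 3562367 to 6559454 read pairs assigned to genes, and the 10 most counted genes took 51.3% to 68.5% of a library. Values are given as CPM, counts scaled to a common library size with edgeR's TMM factors, and the floor of 3 counts corresponds to 0.449 to 0.892 CPM. Il1rl1 itself went against the labels in part: it ran from 12.6 to 15.3 CPM in the libraries labelled Il1rl1-/- monocytes against 1.95 to 4.28 CPM in WT monocytes, and from 11.8 to 12.9 CPM against 3.18 to 5.71 CPM in pre-RPMs. In RPMs it was 0.224 to 1.28 CPM against 1.06 to 3.00 CPM. Which exons the allele removes was not given in the sources used here, so every genotype direction below is that of the libraries as labelled. RPMs could be told from pre-RPMs by markers, with all 8 RPM markers called higher in both genotypes. Monocytes and pre-RPMs were less distinct: 1 of 7 tested RPM markers was called higher in WT pre-RPMs and 1 of 6 in Il1rl1-/- pre-RPMs, and 1 of 7 monocyte markers lower in each. Replicates 1 and 2 of the monocytes stood apart: their 7 monocyte markers summed to 1037 and 738 CPM in WT against 2716 and 2103 CPM in replicates 3 and 4, and to 1205 and 1704 CPM against 3289 and 2450 CPM in Il1rl1-/- monocytes. The same replicates had the higher sums of NK cell markers. These were 1535 and 1790 CPM against 541 and 998 CPM in WT, and 1474 and 1117 CPM against 479 and 762 CPM in Il1rl1-/- monocytes. Neutrophil markers did not split the replicates in this way. The main results on monocytes are therefore also given without replicates 1 and 2.

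H2-Ab1, H2-Aa, H2-Eb1 and the H2-DM and H2-O genes lie together on chromosome 17 of the GRCm38 annotation (from H2-Oa at chr17:34092340-34095234 to H2-Eb1 at chr17:34305877-34316199), Ciita lies at chr16:10480059-10528418 on the + strand, and Cd74 lies on chromosome 18. Levels of different genes were compared per kilobase of exon. Cd74 was the highest in all 6 groups, at 527 CPM per kb in WT monocytes, followed there by H2-Ab1 at 211, H2-Eb1 at 156 and H2-Aa at 134 CPM per kb. The accessory genes were far lower: H2-DMa was at 16.4 CPM per kb, H2-DMb2 at 6.99, H2-DMb1 at 5.97 and Ciita at 5.88 CPM per kb. H2-Oa and H2-Ob were the lowest of the set in every group, at 2.43 and 1.86 CPM per kb in WT monocytes. H2-DMb1 and H2-DMb2 share sequence, with 22.7% and 24.8% of their 50-base words found in the exons of another gene, so the split of reads between this pair is uncertain. Class II genes of Balb/c differ in sequence from the reference strain, which could lower the reads aligned to H2-Aa, H2-Ab1 and H2-Eb1 in all groups alike; this was not tested.

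**Figure D1:**
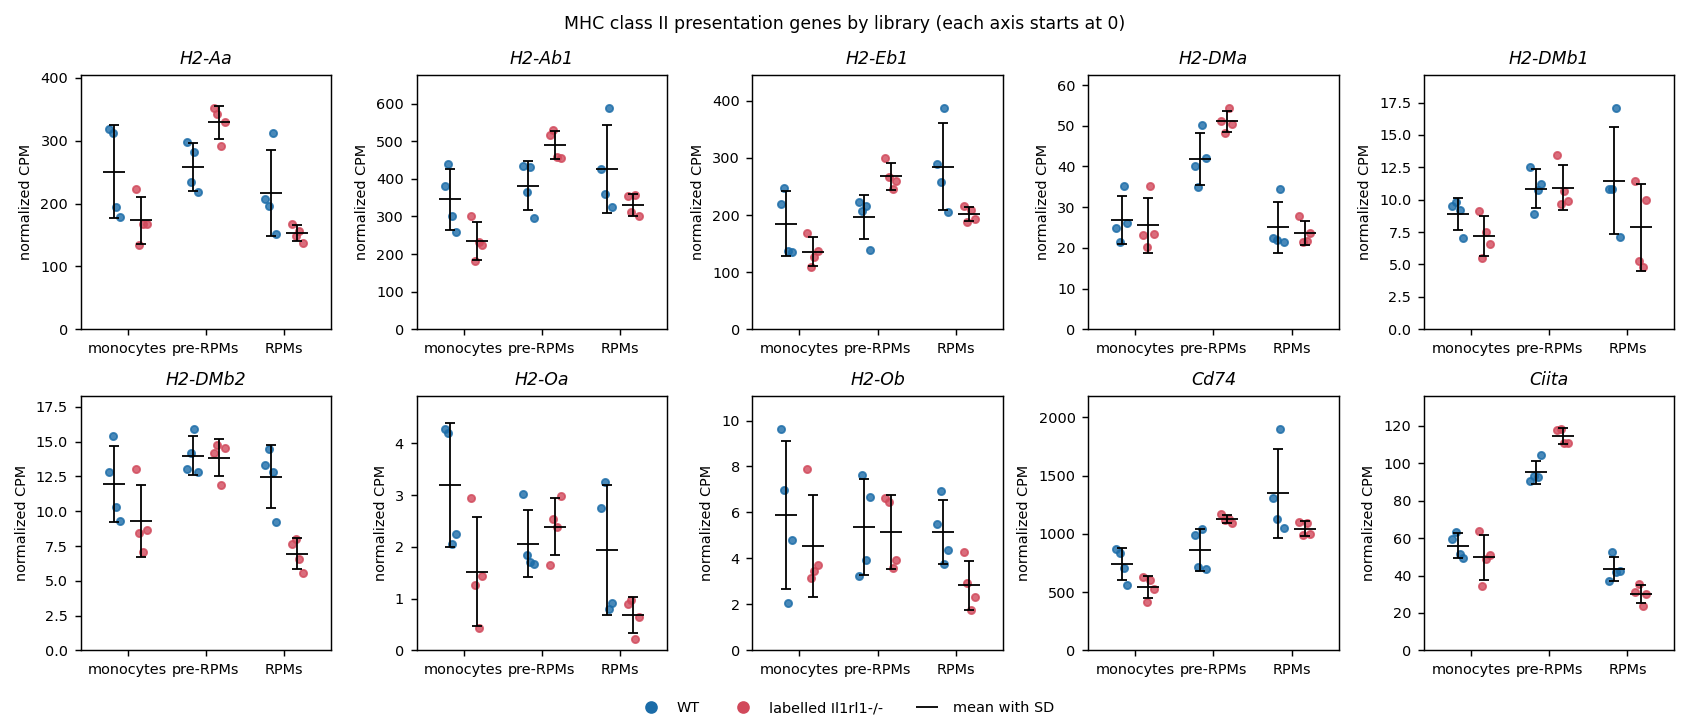
Level of each member in every library, in CPM on axes that start at 0; each point is a library (4 per group), by cell type and genotype, and bars are the group mean with SD. Ciita peaks in the pre-RPMs of both genotypes, whereas Cd74 is at its highest in WT RPMs (mean 1347 CPM) and H2-Oa and H2-Ob stay under 10 CPM throughout.

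The members changed in different ways on the way from monocyte to RPM, and more of them passed the test in the libraries labelled Il1rl1-/- than in WT. In the main edgeR fits, which had no mouse block, the difference between genotypes did not itself pass at any step. From pre-RPMs to RPMs it passed for 4 members with edgeR and the mouse number as a block, and for 3 with DESeq2. With edgeR on every gene of at least 1 count it passed for some members in this step and from monocytes to pre-RPMs. Between cell types a gene was called at an adjusted p under 0.01 with an absolute log2 fold change above 1 (edgeR's quasi-likelihood test, Benjamini-Hochberg over all genes tested). From WT monocytes to pre-RPMs 0 of 10 members were called, and 0 by DESeq2, where 3.57% of 11091 genes were called. At an unadjusted p under 0.05 stood 2 members and 3540 of the 11091 genes. From WT pre-RPMs to RPMs 1 of the 9 members tested was called, Ciita, which fell, where 24.7% of 11239 genes were called. From WT monocytes to RPMs 0 of 10 were called, and 0 by DESeq2, against 23.9% of all genes tested. Here 3 members and 6135 of 11607 genes had an unadjusted p under 0.05.

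In Il1rl1-/- cells 4 of 10 members rose from monocytes to pre-RPMs (Ciita, Cd74, H2-Ab1 and H2-DMa), where 4.85% of 11196 genes were called in either direction. All 10 had a positive log2 fold change, with a median of 0.96 against a median of -0.00 over all genes tested. From Il1rl1-/- pre-RPMs to RPMs 4 of the 9 members tested fell (Ciita, H2-DMa, H2-Aa and H2-DMb2), where 26% of 11437 genes were called. Here all 9 values were negative, with a median of -0.93. From Il1rl1-/- monocytes to RPMs 0 of 9 were called, and 0 by DESeq2, against 25.9% of all genes tested. Of the members 4 had an unadjusted p under 0.05, as had 6424 of 11633 genes. In WT the member medians were 0.18 from monocytes to pre-RPMs and -0.08 from pre-RPMs to RPMs. Without replicates 1 and 2 of the monocytes the median from monocytes to pre-RPMs was 0.47 in WT, where 0 members were called, and 0.98 in Il1rl1-/- cells. These comparisons share their pre-RPM libraries, so a rise followed by a fall is in part the same measurement. H2-Oa had too few counts to be tested from pre-RPMs to RPMs in either genotype, from Il1rl1-/- monocytes to RPMs and between the genotypes in RPMs.

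The rise in Il1rl1-/- cells lay close to the fold threshold. H2-DMa stood just inside it, at a log2 fold change of 1.00, and H2-Eb1 just outside, at 0.99. Without Il1rl1-/- monocyte replicate 2, the library with the lowest value for 8 of the 10 members, 1 member was called (Ciita, 1.06), and Cd74, H2-Ab1 and H2-DMa stood at 0.94, 0.96 and 0.90. Without replicates 1 and 2 of the monocytes 3 were called (Ciita at 1.18, H2-Ab1 at 1.10 and H2-Eb1 at 1.01). With the mouse number as a block 5 were called, H2-Eb1 joining the other 4 at 1.00. When the 2-fold threshold was itself tested, 0 members were called in this step, 0 in the WT fall and 1, Ciita, in the Il1rl1-/- fall.

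**Figure D2:**
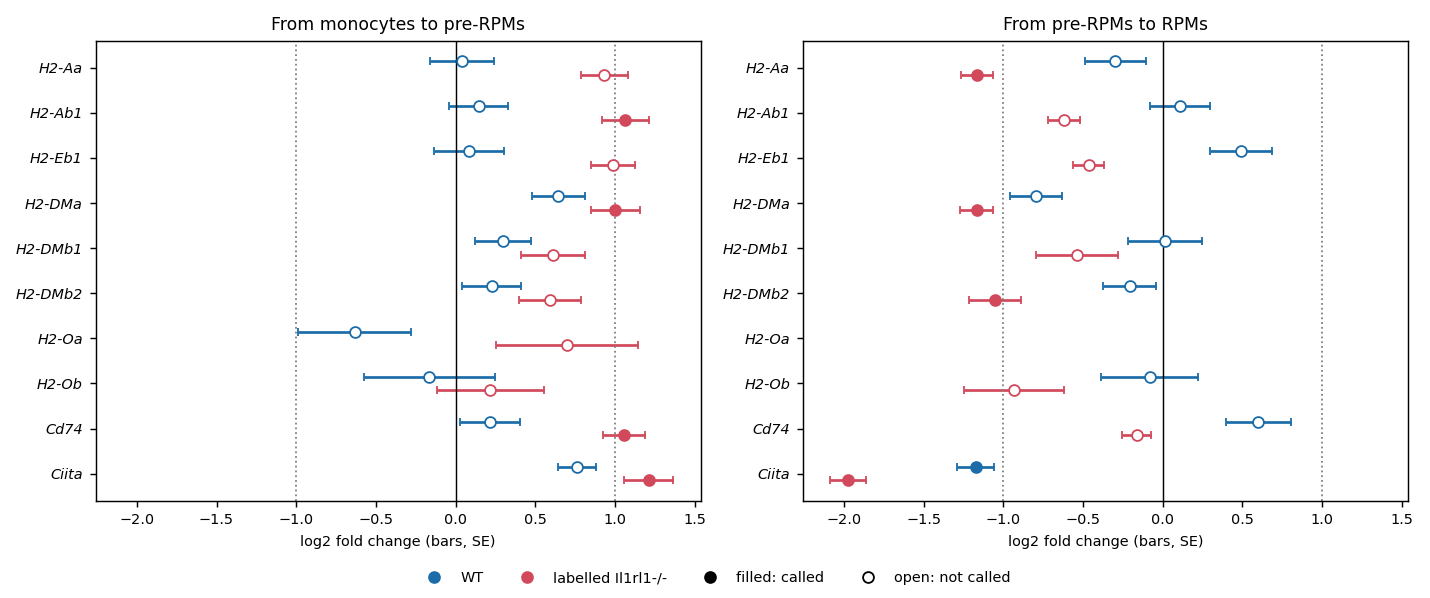
Log2 fold change of each member, with its standard error, from monocytes to pre-RPMs and from pre-RPMs to RPMs in each genotype; filled points passed the test and dotted lines mark a 2-fold change. Ciita lies furthest to the left from pre-RPMs to RPMs (-1.17 in WT and -1.97 in Il1rl1-/- cells), and Cd74 lies furthest to the right there in WT (0.60, not called).

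The classical chains form the peptide-binding groove, H2-Aa and H2-Ab1 as the I-A pair and H2-Eb1 as the beta chain of I-E. H2-Ab1 was at 380, 440, 302 and 260 CPM in WT monocytes 1 to 4, at 435, 365, 432 and 296 CPM in WT pre-RPMs and at 425, 360, 589 and 326 CPM in WT RPMs. The 3 WT groups overlapped throughout. In Il1rl1-/- cells it was at 302, 181, 231 and 225 CPM in monocytes, at 517, 529, 458 and 456 CPM in pre-RPMs and at 356, 311, 357 and 301 CPM in RPMs. All 4 Il1rl1-/- pre-RPM libraries lay above all 4 of the monocyte and of the RPM libraries. H2-Ab1 rose 2.09-fold from Il1rl1-/- monocytes to pre-RPMs (log2 fold change 1.07, SE 0.15, adjusted p = 0.000592), and from pre-RPMs to RPMs its value was -0.62 (SE 0.10), below the fold required.

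H2-Aa, the alpha chain of I-A, differed from its partner at the RPM stage. It was at 318, 312, 195 and 179 CPM in WT monocytes, at 297, 235, 282 and 218 CPM in WT pre-RPMs and at 207, 196, 313 and 151 CPM in WT RPMs. The Il1rl1-/- libraries went from 223, 134, 167 and 168 CPM in monocytes to 352, 343, 292 and 329 CPM in pre-RPMs and 168, 149, 157 and 138 CPM in RPMs. The Il1rl1-/- pre-RPMs were again above both other stages without overlap, whereas Il1rl1-/- monocytes and RPMs overlapped. H2-Aa fell 2.24-fold from Il1rl1-/- pre-RPMs to RPMs (log2 fold change -1.16, SE 0.10, adjusted p = 8.96e-08), while in WT the value was -0.30 (SE 0.19, adjusted p = 0.218).

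H2-Eb1 was at 219, 247, 138 and 136 CPM in WT monocytes, 224, 206, 216 and 139 CPM in WT pre-RPMs and 289, 258, 388 and 205 CPM in WT RPMs. The Il1rl1-/- values were 169, 108, 127 and 137 CPM in monocytes, 300, 267, 245 and 259 CPM in pre-RPMs and 215, 188, 209 and 193 CPM in RPMs. It thus had its highest group mean in WT RPMs (285 ± 76.9 CPM, SD, n = 4), a group that overlapped the Il1rl1-/- pre-RPMs. None of its changes between cell types reached the fold required: 0.49 (SE 0.19) from WT pre-RPMs to RPMs and -0.47 (SE 0.10) in Il1rl1-/- cells. The alpha chain of I-E is annotated in the reference as the polymorphic pseudogene H2-Ea-ps, which Balb/c mice carry in working form. It had group means of 130, 147 and 195 CPM in WT monocytes, pre-RPMs and RPMs and of 83.2, 172 and 144 CPM in Il1rl1-/- cells, and rose from Il1rl1-/- monocytes to pre-RPMs (log2 fold change 1.05). H2-Eb2, a further beta chain gene of the locus, had 0 to 4 counts in every library.

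Cd74 encodes the invariant chain, which is also a surface receptor for the cytokine MIF. It was at 866, 836, 703.5 and 564 CPM in WT monocytes, at 989, 716, 1044 and 702.7 CPM in WT pre-RPMs and at 1311, 1124, 1902 and 1051 CPM in WT RPMs. WT RPMs lay above all the other WT libraries, with replicate 3 the highest of all 24. In Il1rl1-/- cells Cd74 was at 628, 417, 601 and 526 CPM in monocytes, at 1168, 1121, 1126 and 1090 CPM in pre-RPMs and at 1105, 986, 1092 and 997 CPM in RPMs. It rose 2.08-fold from Il1rl1-/- monocytes to pre-RPMs (log2 fold change 1.06, SE 0.13, adjusted p = 0.000334) and had a value of -0.16 (SE 0.09) on to RPMs, where the libraries of both stages overlapped. From monocytes to RPMs Cd74 stood at 0.84 (SE 0.22, adjusted p = 0.00854) in WT and at 0.95 (SE 0.15, adjusted p = 0.000187) in Il1rl1-/- cells, past the p threshold and under the fold required in both. Without Il1rl1-/- monocyte replicate 1 that value was 1.02 and was called. Without replicates 1 and 2 of the monocytes the WT value was 1.07 and was called, as was H2-Eb1 at 1.04, so that 2 members were then called from WT monocytes to RPMs.

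H2-DMa encodes the alpha chain of H2-DM. It was at 24.9, 21.4, 35.1 and 26.1 CPM in WT monocytes, at 40.2, 34.9, 50.2 and 42.1 CPM in WT pre-RPMs and at 22.5, 22.0, 34.5 and 21.5 CPM in WT RPMs. Its Il1rl1-/- values were 23.1, 20.2, 35.3 and 23.5 CPM in monocytes, 51.1, 48.3, 54.4 and 50.5 CPM in pre-RPMs and 27.8, 21.4, 21.7 and 23.6 CPM in RPMs. Pre-RPMs of both genotypes were the highest groups, and only in WT did a pre-RPM library (34.9 CPM) lie below a monocyte library (35.1 CPM). H2-DMa rose 2.00-fold from Il1rl1-/- monocytes to pre-RPMs (log2 fold change 1.00, SE 0.15, adjusted p = 0.0012) and fell 2.25-fold on to RPMs (log2 fold change -1.17, SE 0.10, adjusted p = 1.25e-07). In WT the values were 0.64 (SE 0.17, adjusted p = 0.0272) and -0.79 (SE 0.16, adjusted p = 0.000947), of the same sign and under the fold required.

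The beta chains of H2-DM were lower and flatter. H2-DMb2 had group means of 11.96 ± 2.73, 14.0 ± 1.41 and 12.5 ± 2.26 CPM (SD, n = 4) in WT monocytes, pre-RPMs and RPMs, and of 9.30 ± 2.59, 13.8 ± 1.32 and 6.94 ± 1.11 CPM in Il1rl1-/- cells. The Il1rl1-/- RPM libraries, at 7.62, 8.01, 6.58 and 5.54 CPM, all lay below the WT RPM libraries, at 13.3, 14.5, 12.8 and 9.24 CPM. H2-DMb2 fell 2.07-fold from Il1rl1-/- pre-RPMs to RPMs (log2 fold change -1.05, SE 0.16, adjusted p = 6.11e-05). H2-DMb1 ran from 4.82 to 17.1 CPM over the 24 libraries and was not called in any comparison.

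H2-Oa and H2-Ob encode the chains of H2-O, which is best known from B cells. H2-Oa had 1 to 28 counts per library and H2-Ob had 8 to 63, and the standard errors of H2-Oa, 0.33 to 0.76 on the log2 scale, leave even 2-fold changes within its error in some comparisons. Neither was called in any comparison of the main fits, which did not test H2-Oa from pre-RPMs to RPMs. From Il1rl1-/- pre-RPMs to RPMs it went from 1.65, 2.54, 2.38 and 2.98 CPM to 0.897, 0.981, 0.219 and 0.639 CPM, without overlap. The RPM values rest on 1 to 6 counts. Alternative edgeR settings that tested this step gave an adjusted p of 0.0014 to 0.00671. In WT monocytes H2-Ob was at 9.64 and 6.99 CPM in replicates 1 and 2 and at 2.06 and 4.79 CPM in replicates 3 and 4; B cell markers summed to 106 and 123 CPM in replicates 1 and 2 and to 27.5 and 47.6 CPM in replicates 3 and 4. Whether B cells in the sort set the H2-O level was not tested.

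Ciita had the largest called changes among the members. It was at 59.7, 63.5, 51.6 and 49.3 CPM in WT monocytes, at 90.7, 93.4, 92.6 and 104 CPM in WT pre-RPMs and at 37.3, 52.5, 41.9 and 42.3 CPM in WT RPMs. Ciita in Il1rl1-/- cells was at 64.0, 34.3, 49.1 and 51.2 CPM in monocytes, at 118, 118, 111 and 111 CPM in pre-RPMs and at 31.2, 35.6, 23.7 and 30.2 CPM in RPMs. The order of the group means was Il1rl1-/- pre-RPM, WT pre-RPM, WT monocyte, Il1rl1-/- monocyte, WT RPM and Il1rl1-/- RPM, and of these neighbours the monocytes of the 2 genotypes overlapped each other and Il1rl1-/- monocytes overlapped WT RPMs. Ciita rose 2.32-fold from Il1rl1-/- monocytes to pre-RPMs (log2 fold change 1.21, SE 0.15, adjusted p = 0.00034), and in WT the value was 0.76 (SE 0.12, adjusted p = 0.00211), without overlap of libraries but under the fold required. It fell 2.26-fold from WT pre-RPMs to RPMs (log2 fold change -1.17, SE 0.12, adjusted p = 1.39e-06) and 3.93-fold in Il1rl1-/- cells (log2 fold change -1.97, SE 0.11, adjusted p = 7.46e-10).

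The other members did not all follow Ciita to the RPM stage alike. From Il1rl1-/- pre-RPMs to RPMs H2-DMa, H2-Aa and H2-DMb2 were called lower, as Ciita was (-1.17, -1.16 and -1.05). In that step Cd74 stood at -0.16 in Il1rl1-/- cells and at 0.60 in WT, not called in either. Set against H2-Ab1 within each library, per kilobase, Ciita stood at 0.0284, 0.0442 and 0.0186 in WT monocytes, pre-RPMs and RPMs and at 0.0361, 0.0402 and 0.0158 in Il1rl1-/- cells. Cd74 went the other way, at 2.52, 2.62 and 3.67 times H2-Ab1 in WT and 2.71, 2.68 and 3.67 times in Il1rl1-/- cells. H2-Eb1 also gained on H2-Ab1 from pre-RPMs to RPMs (0.708 to 0.927 in WT, 0.756 to 0.843 in Il1rl1-/- cells), while H2-Aa lost (0.593 to 0.443 and 0.588 to 0.403), as did H2-DMa (0.111 to 0.0594 and 0.105 to 0.0714). For all 5 ratios the pre-RPM and RPM libraries did not overlap in either genotype, with an exact permutation p of 0.0286, 2-sided, which is the smallest that 4 against 4 can give, and 0.0833 after Benjamini-Hochberg adjustment over the 35 ratio comparisons made. The ratios were set up after the levels had been seen. Cd74 took 45.6%, 45.9% and 56.7% of the summed CPM of the 10 members in WT monocytes, pre-RPMs and RPMs and 45.9%, 46.8% and 58.0% in Il1rl1-/- cells.

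**Figure D3:**
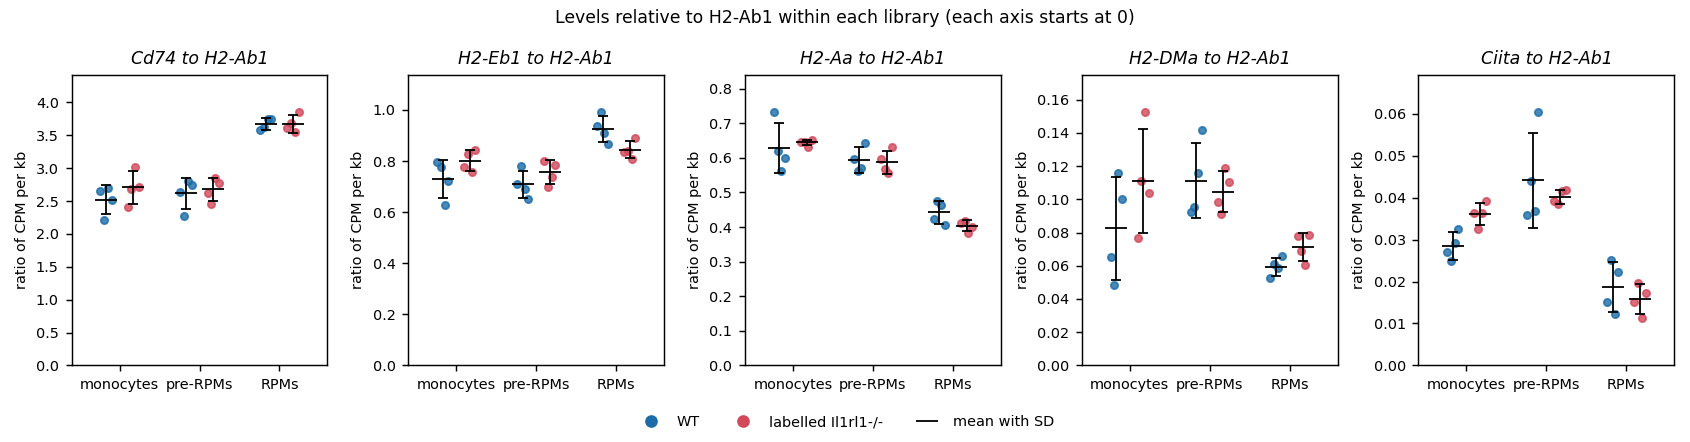
Ratio of each of 5 members to H2-Ab1 within each library, from CPM per kilobase of exon, by cell type and genotype; each point is a library with bars for the group mean and SD, on axes that start at 0. From pre-RPMs to RPMs the ratios of Cd74 and H2-Eb1 go up and those of H2-Aa, H2-DMa and Ciita go down, with no overlap of libraries in either genotype.

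Between the genotypes the median log2 difference of the members (Il1rl1-/- minus WT) stood at -0.43, 0.27 and -0.51 for monocytes, pre-RPMs and RPMs, but 0 members passed an adjusted p under 0.05 at any stage in the main edgeR fits or with DESeq2. In monocytes 0 of 10 were called, where 0.0614% of 11405 genes were called, and all 10 values were negative. In pre-RPMs 0 of 10 were called, where 0.552% of 10698 genes were called. In RPMs 0 of 9 were called, where 0.233% of 11150 genes were called, and all 9 values were negative. At an unadjusted p under 0.05 stood 4, 6 and 7 members in monocytes, pre-RPMs and RPMs. The same held for 410, 941 and 811 of all genes tested. In bulk samples such as these, fewer cells of a type and less RNA per cell cannot be told apart.

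In pre-RPMs the libraries of the genotypes did not overlap for H2-Eb1 (log2 difference, Il1rl1-/- minus WT, 0.44, SE 0.13), Cd74 (0.38, SE 0.13), H2-Ab1 (0.36, SE 0.12) and Ciita (0.26, SE 0.09). The share of all genes without overlap is not given here for any comparison, so absence of overlap only describes these libraries. H2-DMb1, H2-DMb2 and H2-Ob were nearest to equal, within 0.04 of 0. In RPMs the libraries did not overlap for H2-DMb2 (-0.85, SE 0.19) and Ciita (-0.53, SE 0.14). With the mouse number as a block these 2 members were called at an adjusted p under 0.05, where 0.726% of genes were called. The block values were -0.85 and -0.53, but same-numbered mice of the 2 genotypes are different animals. The RPM differences of the abundant members were smaller without WT RPM replicate 3, the highest WT RPM library for 6 of the 10 members: without it H2-Aa stood at -0.28 rather than -0.51, H2-Eb1 at -0.32 rather than -0.51 and Cd74 at -0.16 rather than -0.37. H2-DMb2 and Ciita stood at -0.83 and -0.55 without it. WT RPM replicate 3 had the lowest B cell marker sum of the WT RPMs, 42.2 CPM against 61.2 to 142 CPM in the other 3. It was also the lowest WT RPM library for 2 members, H2-Oa (0.801 CPM) and H2-Ob (3.74 CPM). The part of B cells was not tested. In monocytes, without replicates 1 and 2, the differences of H2-Aa, H2-Eb1 and Cd74 went from -0.54, -0.45 and -0.46 to -0.16, -0.05 and -0.17, and the median of all 10 from -0.43 to -0.16.

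**Figure D4:**
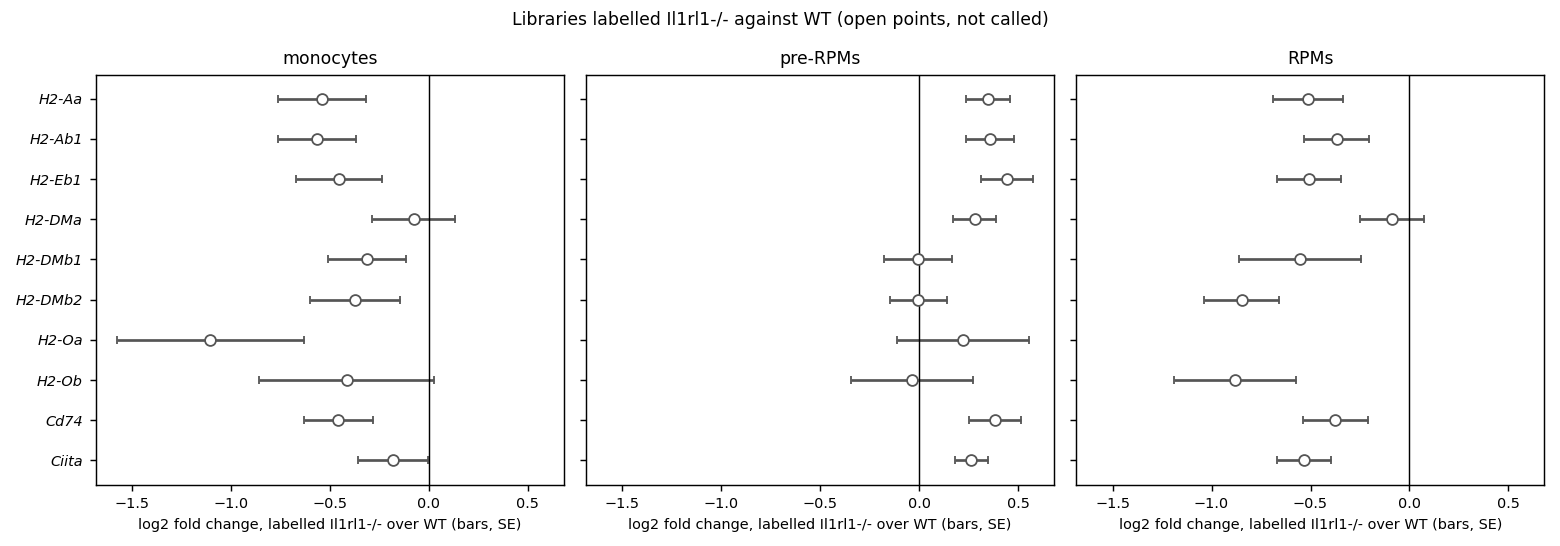
Log2 difference between the libraries labelled Il1rl1-/- and WT for each member, with its standard error, in monocytes, pre-RPMs and RPMs. Values lie below 0 in monocytes and RPMs, and 7 of 10 lie above 0 in pre-RPMs. In these main edgeR fits none passed an adjusted p under 0.05 (smallest unadjusted p 0.000683, H2-DMb2 in RPMs).

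Whether the genotypes changed differently between stages was tested as an interaction. From monocytes to pre-RPMs 0 of 10 members were called and 0 by DESeq2. In the main edgeR fit 0% of 11960 genes were called, so that fit made no call at all. At an unadjusted p under 0.05 stood 6 members and 454 of the 11960 genes. The member values were all positive, with a median of 0.64, and H2-Ab1 stood at 0.92 (SE 0.25). Without replicates 1 and 2 of the monocytes 9 of 10 were positive, with a median of 0.41, and H2-Aa, H2-Eb1 and Cd74 went from 0.89, 0.90 and 0.84 to 0.50, 0.49 and 0.55. From pre-RPMs to RPMs 0 of 10 were called by the main edgeR fit, where 0.107% of 12150 genes were called. Here 7 members and 914 of the 12150 genes had an unadjusted p under 0.05. All 10 values were negative, with a median of -0.81. Ciita was the nearest to the threshold, at -0.78 (SE 0.16, adjusted p = 0.0753), followed by H2-Eb1 at -0.94 (SE 0.23). With the mouse number as a block 4 members were called in this step (Ciita at -0.78, H2-Aa at -0.81, H2-Eb1 at -0.92 and Cd74 at -0.73), where 0.296% of genes were called, and DESeq2 called 3. Without Il1rl1-/- RPM replicate 2 edgeR called Ciita, at -0.87, and without WT RPM replicate 3 the values of Ciita, H2-Aa, H2-Eb1 and Cd74 were -0.80, -0.62, -0.75 and -0.53. For the whole path from monocytes to RPMs 0 of 10 were called, and 0 by DESeq2, where 0.0318% of 12592 genes were called. At an unadjusted p under 0.05 stood 0 members and 609 of the 12592 genes.

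Other cells that hold class II were followed with marker lists, since a few of them in a sort could carry these transcripts. The 10 B cell markers summed to 61.1 to 85.5 CPM in WT pre-RPMs and 25.6 to 55.6 CPM in Il1rl1-/- pre-RPMs. Of the 9 tested 2 were called lower there (Pax5 and Ms4a1). In RPMs these sums were 42.2 to 142 CPM in WT and 40.3 to 74.4 CPM in Il1rl1-/- cells, with 0 of 9 called. The median log2 difference of the class II members was 0.27 in pre-RPMs and -0.51 in RPMs. The part of B cells was not tested. In every group 9 of the 10 B cell markers were above the floor in all 4 libraries. The 5 markers of type 2 conventional dendritic cells summed to 13.2 to 35.4 CPM in WT pre-RPMs and 30.3 to 47.0 CPM in Il1rl1-/- pre-RPMs, with 1 of 3 tested called higher (Mgl2). They moved in the same direction as H2-Eb1, Cd74, H2-Ab1 and Ciita there, and their part in that difference was not tested.

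At the RPM stage the same 5 markers summed to 5.08 to 6.72 CPM in WT and 3.07 to 4.26 CPM in Il1rl1-/- cells, with Mgl2 at 0 in all 4 Il1rl1-/- libraries. Those tested fell from pre-RPMs to RPMs, as did Ciita in both genotypes and H2-Aa and H2-DMa in Il1rl1-/- cells: Cd209a and Clec10a in WT, and these with Mgl2 in Il1rl1-/- cells. Of the other two, Esam went from 0 to 3 counts in WT pre-RPMs to 9 to 21 in WT RPMs and Clec4a4 from 6 to 12 counts to 4 to 10. The part of these cells was not tested. Cd209a had 34 to 94 counts in WT pre-RPMs and 0 to 6 counts in WT RPMs. The 4 markers shared by conventional dendritic cells summed to 30.9 to 41.7 CPM in WT RPMs and 46.6 to 75.9 CPM in WT pre-RPMs, and none was at 0 throughout a group. The 5 markers of type 1 conventional dendritic cells went the other way, from 8.14 to 12.7 CPM in WT pre-RPMs to 282 to 371 CPM in WT RPMs, and from 8.27 to 13.2 CPM to 349 to 402 CPM in Il1rl1-/- cells. Nearly all of that was Cadm1, at 270 to 364 CPM in WT RPMs. Cadm1 and Tlr3 rose in both genotypes, Clec9a fell in Il1rl1-/- cells, and Xcr1 and Itgae each had 1 to 7 counts in WT RPMs. The part of these cells was not tested. The 7 NK cell markers, from cells with little class II, summed to 541 to 1790 CPM in WT monocytes and 65.4 to 135 CPM in WT pre-RPMs. For Il1rl1-/- cells, where members rose in this step, the NK sums were 479 to 1474 CPM in monocytes and 13.2 to 50.5 CPM in pre-RPMs, with 6 of 6 tested called lower. The 7 neutrophil markers went there from 825 to 1756 CPM to 167 to 345 CPM, with 5 called lower and 1 higher. Their part in the rise was not tested.

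**Figure D5:**
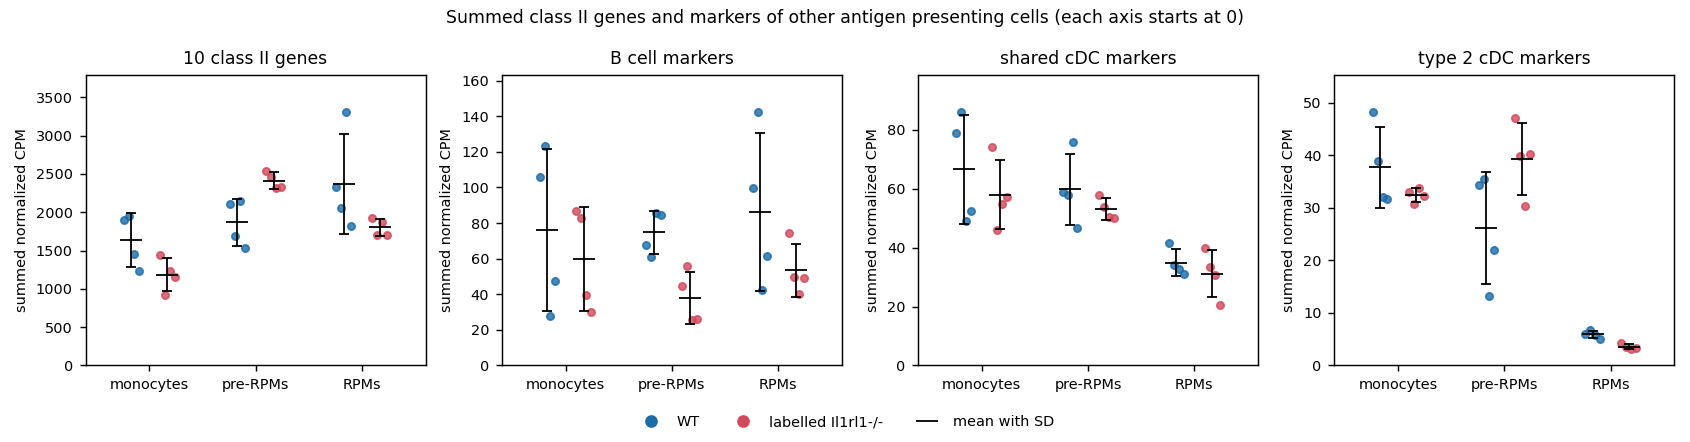
Summed CPM of the 10 members and of the B cell, shared conventional dendritic cell (cDC) and type 2 cDC marker lists in each library, on axes that start at 0; each point is a library, by cell type and genotype, with bars for the group mean and SD. In the RPM libraries the 10 members summed to 1701 to 3302 CPM. There the B cell markers summed to 40.3 to 142 CPM and the shared cDC markers to 20.7 to 41.7 CPM. The type 2 markers reached at most 6.72 CPM, and the part of these cells was not tested.

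Among the other genes of the pathway, several involved in processing and costimulation changed from pre-RPM to RPM. Of 39 listed genes 36 could be tested. From WT monocytes to pre-RPMs 0 rose and 2 fell, where 3.57% of all genes tested were called. From WT pre-RPMs to RPMs 9 rose and 8 fell, where 24.7% were called. In the first step Ctsd (cathepsin D, a lysosomal protease) fell by 1.63 on the log2 scale and Jak1, a kinase of interferon receptors, fell by 1.24. In the second, the costimulatory ligand Cd86 rose by 3.01, Cd83, which stabilizes class II at the surface, by 2.84, and the endolysosomal proteases Lgmn and Ctsb by 2.68 and 2.497. The falls were led by the costimulatory receptor Cd40 (-3.24), the chemokine receptor Cxcr4 (-2.35), and the myeloid transcription factors Irf4 (-1.96) and Spi1, which encodes PU.1 (-1.41). Of 8 genes for endolysosomal processing 4 rose and 1 fell in that step, and of 9 genes upstream of Ciita 0 rose and 4 fell, where 24.7% of all genes tested were called in either direction. The receptor chains for interferon gamma, Ifngr1 and Ifngr2, were among the 8 that fell, at -1.11 and -1.20.

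Among Il1rl1-/- cells 3 rose (Lgmn, Ctsl and H2-Ea-ps) and 2 fell (Ctsd and Jak1) from monocytes to pre-RPMs, and 9 rose and 7 fell on to RPMs. Of all genes tested 4.85% and 26% were called in these steps. From monocytes to RPMs 8 rose and 6 fell in WT and 9 rose and 4 fell in Il1rl1-/- cells, where 23.9% and 25.9% of all genes tested were called. The 7 genes of the promoter-bound factors, Rfx5, Rfxap, Rfxank, Nfya, Nfyb, Nfyc and Creb1, were all tested and none was called in any comparison by the main edgeR fits or DESeq2. From WT pre-RPMs to RPMs 4 of them had an unadjusted p under 0.05, as had 6307 of 11239 genes. Rfx5 stood at 0.58 and Nfya at -0.64 in that step. No pathway gene was called between the genotypes by either of these. At an unadjusted p under 0.05 stood 5, 1 and 3 of them in monocytes, pre-RPMs and RPMs. Of all genes tested 410, 941 and 811 did.

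The classical chains and Cd74 varied together from library to library. After the mean of each group was subtracted, the log2 CPM of H2-Aa and H2-Ab1 correlated at r = 0.95 over the 24 libraries, H2-Ab1 and H2-Eb1 at 0.95 and H2-Ab1 and Cd74 at 0.92. These values describe the libraries, which share depth and any admixed cells across genes. H2-DMa was less alike, with r of 0.17, 0.22, 0.04 and 0.49 to H2-Aa, H2-Ab1, H2-Eb1 and Cd74. Over all libraries without subtraction, Cd74 and Ciita stood at r = 0.05, against 0.78 for H2-Aa and Ciita. Among genes outside the set, the profile most like the mean of the members was that of H2-Ea-ps over all libraries (r = 0.73), ahead of Phf5a, Rcc2 and Fgd3 (0.69, 0.685 and 0.682). After subtraction of group means Cdc5l (0.84), H2-Ea-ps (0.82) and Plekha2 (0.80) were the most alike.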

How the data were processed

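RNA-seq of 24 of the 48 samples was used, and the other 24, which profile chromatin accessibility, were not. Libraries were made with a stranded total RNA kit and sequenced as 50-base read pairs. According to the study's methods, the authors used cutadapt for trimming and STAR for alignment, then counted read pairs per gene, by strand, with featureCounts. As deposited, the values are raw counts per gene, with no normalization. The submitters' processing notes name STAR 2.5.1, and the file headers name featureCounts 1.6.2 with Ensembl GRCm38 release 95. The 10 members and all gene lists were chosen with earlier results of these data known, so their patterns are no independent support.

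Each comparison was fitted over its own libraries with edgeR 4.0.16 (quasi-likelihood test, filterByExpr, TMM) in R 4.3.3, with Benjamini-Hochberg adjustment over all genes tested. Calls between cell types needed a log2 fold change beyond 1 either way with an adjusted p below 0.01, those between genotypes and for interactions an adjusted p below 0.05. CPM used TMM-scaled library sizes, and log2 CPM for correlations a prior count of 2. All members were named in every comparison, and of the other pathway genes the 4 largest called rises and the 4 largest called falls of each WT step, with H2-Ea-ps and H2-Eb2; genes named otherwise were chosen after their values were seen. The procedure was tested on simulated counts. Alternatives were DESeq2 1.42.0, RLE size factors, 2 other filters, a single fit of all libraries, removal of the 10 most counted genes, a test of the fold itself (glmTreat), the mouse number as a block and each library left out; leaving out replicates 1 and 2 of the monocytes was added after the data were seen. Each library came from a single mouse, and the mouse number in the labels was taken as the animal within a genotype. Between genotypes the same number marks different animals. Same-numbered libraries of the genotypes deviated together (r of 0.118 to 0.452 in monocytes and 0.149 to 0.182 in RPMs). However, between the genotypes only 2 of 4 monocyte libraries and 1 of 4 RPM libraries correlated best with their own number. Within a genotype, from pre-RPMs to RPMs, 4 of 4 did so in WT (r of 0.0639 to 0.139) and in Il1rl1-/- cells (0.0943 to 0.142). From monocytes to pre-RPMs it was 3 of 4 in WT (-0.0394 to 0.116) and 4 of 4 in Il1rl1-/- cells (0.126 to 0.306). Total counts of 3562367 to 6559454 per library set the precision; floors cover counting error only.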

Additional observations from a re-analysis of the deposited data

Results flagged for a closer look

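In 3 of 60 combinations of a member and a group, a library lay far from the other 3 (Dixon's ratio of the gap to the range above its 95% critical value, which chance exceeds in about 1 in 20 groups). H2-DMa, the alpha chain of H2-DM, was at 34.5 CPM in WT RPM replicate 3, with the others at 21.5 to 22.5 CPM (ratio 0.925). H2-Oa was at 3.02 CPM in WT pre-RPM replicate 1, with the others at 1.67 to 1.84 CPM (ratio 0.874), on 13 counts against 7 in each of the others. H2-Ob was at 7.88 CPM in Il1rl1-/- monocyte replicate 1, with the others at 3.15 to 3.70 CPM (ratio 0.884); that library also had the highest sum of B cell markers of its group, 86.7 CPM, though replicate 2 was close at 82.62 CPM, and the part of B cells was not tested.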

How the results depend on the processing

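Of 2084 member values recomputed under the alternatives, 74 had the other sign, none of them called under either setting (the largest was 0.57 on the log2 scale), 22 were no longer called and 38 were newly called; 201 of 217 counts of called members stayed within 1.5 times. The counts that moved more were as follows. With the 2-fold threshold itself tested they were 0 from WT pre-RPMs to RPMs, 0 from Il1rl1-/- monocytes to pre-RPMs and 1 from Il1rl1-/- pre-RPMs to RPMs, since that test asks for more than the fold. With every gene of at least 1 count they were 1, 2 and 4 between genotypes in monocytes, pre-RPMs and RPMs, and 4 and 5 for the genotype difference in the change from monocytes to pre-RPMs and from pre-RPMs to RPMs; the cause was not tested. DESeq2 gave 3 in the last of these. Without replicates 1 and 2 of the monocytes, chosen after seeing the data, 2 were called from WT monocytes to RPMs. With each library left out in turn, 1 to 5 members were called from Il1rl1-/- monocytes to pre-RPMs, 4 to 6 from Il1rl1-/- pre-RPMs to RPMs, 0 to 1 from Il1rl1-/- monocytes to RPMs and 0 to 1 for the genotype difference from pre-RPMs to RPMs; the other 8 counts did not move. From Il1rl1-/- pre-RPMs to RPMs, H2-Ob was called at -1.17 without RPM replicate 1.

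With the mouse number as a replicate block, 2 members were called between genotypes in RPMs and 4 for the genotype difference from pre-RPMs to RPMs. For that genotype difference the block was the animal within its genotype, where 4 of 4 libraries correlated best with their own number in each genotype. Between genotypes in RPMs only 1 of 4 libraries correlated best with its own number. In pre-RPMs, where only 2 of 4 same-numbered pairs correlated above 0.1 (0.0452 to 0.155), although 4 of 4 libraries correlated best with their own number, the block gave 2 calls (H2-Eb1 at 0.46 and Cd74 at 0.40). H2-Eb1 from Il1rl1-/- monocytes to pre-RPMs was called too, and the block changed no other call. It turned H2-DMb1 to -0.00427 from WT pre-RPMs to RPMs and to 0.00506 between genotypes in pre-RPMs, and H2-DMa to 0.025 for the genotype difference from monocytes to RPMs.

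The remaining changes of sign were of uncalled values. With every gene, H2-DMb2 stood at 0.0124 and H2-DMb1 at 0.00924 between genotypes in pre-RPMs, and H2-DMa and H2-Eb1 at 0.0459 and 0.0045 for the genotype difference from monocytes to RPMs, where H2-DMa was at 0.00104 with the 10 most counted genes removed. Without monocyte replicates 1 and 2, H2-Ob stood at 0.57 from WT monocytes to pre-RPMs, 0.51 from WT monocytes to RPMs and -0.032 for the genotype difference to pre-RPMs, H2-Aa at 0.20 from WT monocytes to RPMs, and H2-Aa, H2-Ab1 and Cd74 at -0.34, -0.0512 and -0.19 for the genotype difference from monocytes to RPMs. With 1 library left out, values crossing 0 ran as follows. From WT monocytes to pre-RPMs they were -0.41 to 0.19 for H2-Ob, -0.0905 to 0.18 for H2-Aa and -0.0339 to 0.26 for H2-Eb1. From WT pre-RPMs to RPMs they were -0.22 to 0.19 for H2-DMb1, -0.27 to 0.12 for H2-Ob and -0.091 to 0.22 for H2-Ab1. From WT monocytes to RPMs they were -0.29 to 0.0364 for H2-DMa, -0.0634 to 0.19 for H2-DMb2 and -0.47 to 0.13 for H2-Ob. From Il1rl1-/- monocytes to RPMs they were -0.25 to 0.0859 for H2-DMa and -0.0952 to 0.30 for H2-DMb1. Between genotypes they were -0.28 to 0.0825 for H2-DMa in monocytes, -0.16 to 0.0963 for H2-DMa in RPMs and, in pre-RPMs, -0.0449 to 0.0633 for H2-DMb2, -0.12 to 0.0692 for H2-DMb1 and -0.22 to 0.17 for H2-Ob. For the genotype difference from monocytes to RPMs they were -0.67 to 0.13 for H2-Oa, -0.15 to 0.20 for H2-DMa, -0.45 to 0.0212 for H2-DMb1, -0.0982 to 0.27 for H2-Aa, -0.21 to 0.15 for H2-Eb1 and -0.0179 to 0.31 for Cd74.

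Over all genes the counts called also moved. In WT they ran from 117 to 1094 (396 as reported) from monocytes to pre-RPMs, 1467 to 3411 (2776) from pre-RPMs to RPMs and 1470 to 3703 (2769) from monocytes to RPMs, and in Il1rl1-/- cells from 178 to 1060 (543), 1542 to 3740 (2973) and 1536 to 3930 (3009). Between genotypes they ran from 3 to 139 (7) in monocytes, 17 to 265 (59) in pre-RPMs and 19 to 272 (26) in RPMs, and for the genotype differences in the change from 0 to 78 (0), 3 to 224 (13) and 1 to 165 (4). Depth limits H2-Oa and H2-Ob the most, at 1 to 28 and 8 to 63 counts a library.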
